A study of Mus musculus with 42 samples.

Results

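A set of 10 genes with large differences in baseline mRNA level between DNA repair genotypes were examined in v-abl-transformed mouse pre-B cells: Gnai1, Clec2d, St6galnac2, B3galt1, Abca1, Mgst1, Cpne8, Coro2a, Ccnb1ip1 and Rpgrip1. They were chosen because their untreated levels differed between genotypes on these arrays, so those differences are described here and not tested. They are 10 of 18193 genes with a single platform symbol, and had 25 of the 45101 probe sets on the array. Of these 25, 18 passed a filter that kept 28260 probe sets above the median signal of their own array on at least 3 arrays, and a gene off in most lines could pass only through the lines where it was high. The probe set with the highest mean signal stands for each gene unless another is named. The range of its 21 line means lay between the 97.2 and the 99.9 percentile of the kept probe sets. The choice of the genes favours such high ranks, so nothing is read from them. This range is over lines and not genotypes, and for Cpne8 and Coro2a it came from only some of the Scid lines.

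The lines came from bone marrow of mice aged 3 to 5 weeks that all carried the Em-Bcl2 transgene, and all were transformed with the pMSCV-v-abl retrovirus. There were 6 mutant genotypes, Atm-/-, Scid (a mutation of Prkdc, the DNA-PK catalytic subunit), the hypomorph Mre11A/A, 53bp1-/-, H2ax-/- and Mdc1-/-, and wild type (WT), with 3 lines each. Every line gave 1 array 2 h after 1 Gy of gamma rays from a 137Cesium source and 1 array 2 h after mock treatment, 42 arrays in all, and the labels call the lines of a genotype biological replicates. They number the WT lines 1, 3 and 4 and those of every mutant 1, 2 and 3, and give neither strain background nor whether a line is a clone. With 3 lines per genotype, a difference between genotypes cannot be told apart from one between the founder lines or the strain backgrounds. The lines also differed in sex-linked transcripts: the Y-linked gene Eif2s3y was above the array median on both arrays of 3 lines, Atm-/- line 3 (2233 untreated) and Mre11A/A lines 2 and 3 (2466 and 2799), where Xist was at 216, 30.5 and 4.84, and below it in the other 18 lines, the WT lines included. The part of sex in the levels of these lines was not tested.

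Pre-B cells are B cell precursors that express the surrogate light chain and the RAG recombinase, and the v-abl kinase keeps them dividing in culture. ATM, MRE11, H2AX, MDC1 and 53BP1 act in the signalling that follows a DNA double-strand break, and DNA-PK acts in end joining, which also completes antigen receptor rearrangement. None of the 10 genes is a core part of that machinery: they encode a G protein subunit, a surface lectin, a pair of glycosyltransferases, a lipid transporter, a detoxifying enzyme, a copine, a coronin, a meiotic crossover factor and a ciliary scaffold.

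For 10 of 10 measured pre-B markers, the median signal over all arrays was at or above the array median, though Rag2 fell as low as 7.69. The same held for 1 of 6 T cell markers and 0 of 6 natural killer cell markers. The sum over the 10 pre-B markers was 74946 to 132352 per array. It was 88.7 to 355 for the 6 T cell markers and 89.1 to 253 for the 6 natural killer cell markers. The targeted genes checked the labels where a probe set could: H2ax averaged 69.5 ± 30.7 in H2ax-/- arrays against 10749 ± 1587 in WT arrays (SD, n = 6 each), Mdc1 60.7 ± 73.1 against 418 ± 53.3, Atm 184 ± 69.9 against 762 ± 41.3 on 1428830_at, and Mre11a 559 ± 101 against 1497 ± 131. On the other Atm probe set, 1421205_at, Atm-/- arrays averaged 177 ± 56.9, but H2ax-/- (320.4 ± 35.3) and Mdc1-/- (285 ± 9.45) arrays were low too, against 1518 ± 150.2 in WT arrays, so it does not mark Atm-/- alone. Trp53bp1 averaged 393 ± 84.2 against 733 ± 112 on probe set 1426957_at, and a Prkdc transcript level does not check a point mutation. Not every other probe set of these genes was lower. Mre11a on 1441990_at, unlike 1416748_a_at above, averaged 251 ± 26.2 in Mre11A/A arrays against 174 ± 43.8 in WT arrays. Trp53bp1 on 1446100_at averaged 121 ± 15.4 in 53bp1-/- arrays against 118 ± 34.1 in WT arrays. It was lower in 53bp1-/- arrays on 1426956_a_at (978 ± 221 against 1480 ± 258) and 1435609_at (71.5 ± 27.1 against 125 ± 43.5). By mean it was also lower on 1442316_x_at and 1457812_at, where signals were low and varied widely among WT arrays. Array medians ran between 62.6 and 82.9 on 40 arrays, but reached 103 on the irradiated array of WT line 4 and 116 on that of Atm-/- line 2, where low signals were raised too.

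The 250 bases before the start site of the members differed widely in the number of CG dinucleotides, which had a median of 6 over 32851 RefSeq promoter windows of 27025 genes (GRCm38.p6). Of the 10 genes, 9 had a window. Shown are the member with the most CG (Gnai1), a gene whose signal in all Atm-/-, H2ax-/- and Mdc1-/- lines was above every WT line (Ccnb1ip1), a gene high in all lines but 2 of Scid (Coro2a), and the member with the largest share of its variation between genotypes (Clec2d). Capitals mark CG.
Gnai1: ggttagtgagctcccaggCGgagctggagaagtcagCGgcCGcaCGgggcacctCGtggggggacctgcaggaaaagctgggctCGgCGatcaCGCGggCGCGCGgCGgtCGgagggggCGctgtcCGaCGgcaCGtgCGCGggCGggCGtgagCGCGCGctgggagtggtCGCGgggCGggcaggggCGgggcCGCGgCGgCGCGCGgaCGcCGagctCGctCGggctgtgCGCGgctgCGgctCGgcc
Ccnb1ip1: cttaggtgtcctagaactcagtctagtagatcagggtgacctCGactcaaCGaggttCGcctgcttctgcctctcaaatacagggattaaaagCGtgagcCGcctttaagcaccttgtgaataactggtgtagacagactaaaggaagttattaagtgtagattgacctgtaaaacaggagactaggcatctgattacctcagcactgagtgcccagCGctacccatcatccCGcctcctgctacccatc
Coro2a: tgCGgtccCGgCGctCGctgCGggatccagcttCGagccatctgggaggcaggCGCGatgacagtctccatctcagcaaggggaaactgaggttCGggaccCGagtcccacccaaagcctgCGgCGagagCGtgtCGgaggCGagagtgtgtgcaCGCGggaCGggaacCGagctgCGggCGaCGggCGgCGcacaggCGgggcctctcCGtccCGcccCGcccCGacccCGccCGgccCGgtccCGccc
Clec2d: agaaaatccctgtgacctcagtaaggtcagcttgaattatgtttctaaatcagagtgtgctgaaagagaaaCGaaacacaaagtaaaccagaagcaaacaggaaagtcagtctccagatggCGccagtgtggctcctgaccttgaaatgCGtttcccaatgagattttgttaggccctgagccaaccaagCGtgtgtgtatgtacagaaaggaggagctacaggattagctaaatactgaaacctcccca
These windows lie at chr5:18360414-18360663 (minus strand, Gnai1), chr14:50795729-50795978 (minus, Ccnb1ip1), chr4:46601930-46602179 (minus, Coro2a) and chr6:129180365-129180614 (plus, Clec2d). Gnai1 had 43 CG, a count reached by 0.7% of all windows, Coro2a 33 in its first window (4.0%) and Cpne8 28 (7.6%). Abca1 had 20 and B3galt1 18 in its first window, while Mgst1 had 10 in its first window, Ccnb1ip1 7, Clec2d 4 and Rpgrip1 3. The second windows of Coro2a and B3galt1 had 3 CG each, and that of Mgst1 had 1. Members under the array median in all lines of some genotypes thus included both the window richest in CG and one near the median. The motif TATAAA, searched on both strands and present in 12.4% of windows, was found in those of Abca1 and Rpgrip1. A match is a run of letters and not a shown binding site.

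Gnai1 encodes the inhibitory G protein alpha subunit that lowers adenylyl cyclase activity. It was high in every Mre11A/A, 53bp1-/- and Mdc1-/- line and under the array median in Atm-/-, Scid and WT lines. Its signal on probe set 1454959_s_at in untreated cells was 2865, 528 and 3754 in Mre11A/A, 2256, 2443 and 3188 in 53bp1-/-, and 2619, 1608 and 4106 in Mdc1-/- lines. It was 19.3, 36.1 and 7.32 in Atm-/-, 31.4, 20.5 and 0.903 in Scid, and 68.9, 1762 and 3.70 in H2ax-/- lines, against 24.4, 18.8 and 27.8 in WT lines. The 9 high lines did not overlap the WT lines, and H2ax-/- was split, with line 2 high and lines 1 and 3 low. On the log2(signal + 16) scale, 53bp1-/- was above WT by 6.05, Mdc1-/- by 6.04, Mre11A/A by 5.52 and H2ax-/- by 1.86. By untreated mean the order was Mdc1-/-, 53bp1-/-, Mre11A/A, H2ax-/-, WT, Atm-/- and Scid, and every neighbour in it overlapped the next. The irradiated arrays showed the same lines high, with 2969.5, 542 and 3964 in Mre11A/A, 2216, 2732 and 3065 in 53bp1-/-, 113, 1649 and 25.8 in H2ax-/-, and 2764, 1719 and 4680.1 in Mdc1-/-, against 19.7, 18.2 and 51.6 in WT.

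The line means of the other kept Gnai1 probe sets, 1434440_at and 1427510_at, followed the first. They correlated with it at r = 0.976 and 0.947 over 21 lines, which share a genotype in groups of 3. Over 19231 pairs of kept probe sets of the same gene the median r was 0.426 (quartiles 0.111 and 0.710), but agreement of probe sets and a wide spread over lines entered the choice of the genes, so nothing is read from the gap. On 1434440_at the lone high H2ax-/- line had 637, against 29.2 and 11.8 in the other H2ax-/- lines and 6.62 to 15.4 in WT lines. Mre11A/A line 2 was the lowest of the 9 high lines on all 3 probe sets, and on 1427510_at, at 61.5, it barely exceeded the highest WT line at 57.4. An s_at probe set can hit more than 1 transcript, but the other probe sets showed the same lines high.

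Clec2d encodes a C-type lectin-like surface protein that is a ligand of an inhibitory NKR-P1 receptor of natural killer cells. It was measurable in all lines and stood at a high level in Mre11A/A, 53bp1-/-, H2ax-/- and Mdc1-/- and at a low one in Atm-/-, Scid and WT. On 1419477_at the untreated signal was 2181, 2787 and 2619 in Mre11A/A, 2793, 2064 and 2569 in 53bp1-/-, 1462, 1595 and 2432 in H2ax-/-, and 1795, 834 and 1669 in Mdc1-/- lines. It was 199, 249 and 389 in Atm-/-, and 367, 250.5 and 294 in Scid lines, against 387, 273 and 291 in WT lines. No line of the 4 high genotypes overlapped a line of the 3 low ones, the nearest being Mdc1-/- line 2 at 834 and Atm-/- line 3 at 389. The differences from WT were 2.94 in Mre11A/A, 2.91 in 53bp1-/-, 2.45 in H2ax-/- and 2.06 in Mdc1-/- on the log2 scale, while Atm-/- and Scid differed by -0.21 and -0.06. Of the sum of squares of Clec2d over 42 arrays, 94.2% lay between genotypes, the most among the 10 genes. This split was not particular to Clec2d: untreated Pik3ca averaged 1225 to 1500 in the 4 high genotypes and 327 to 500 in the 3 low ones. Kept probe sets called against untreated WT were 29 in Atm-/- and 144 in Scid, but 1408 to 2124 in the 4 high genotypes. Whether anything besides genotype set these groups of lines apart is not in the labels and was not tested.

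**Figure D1:**
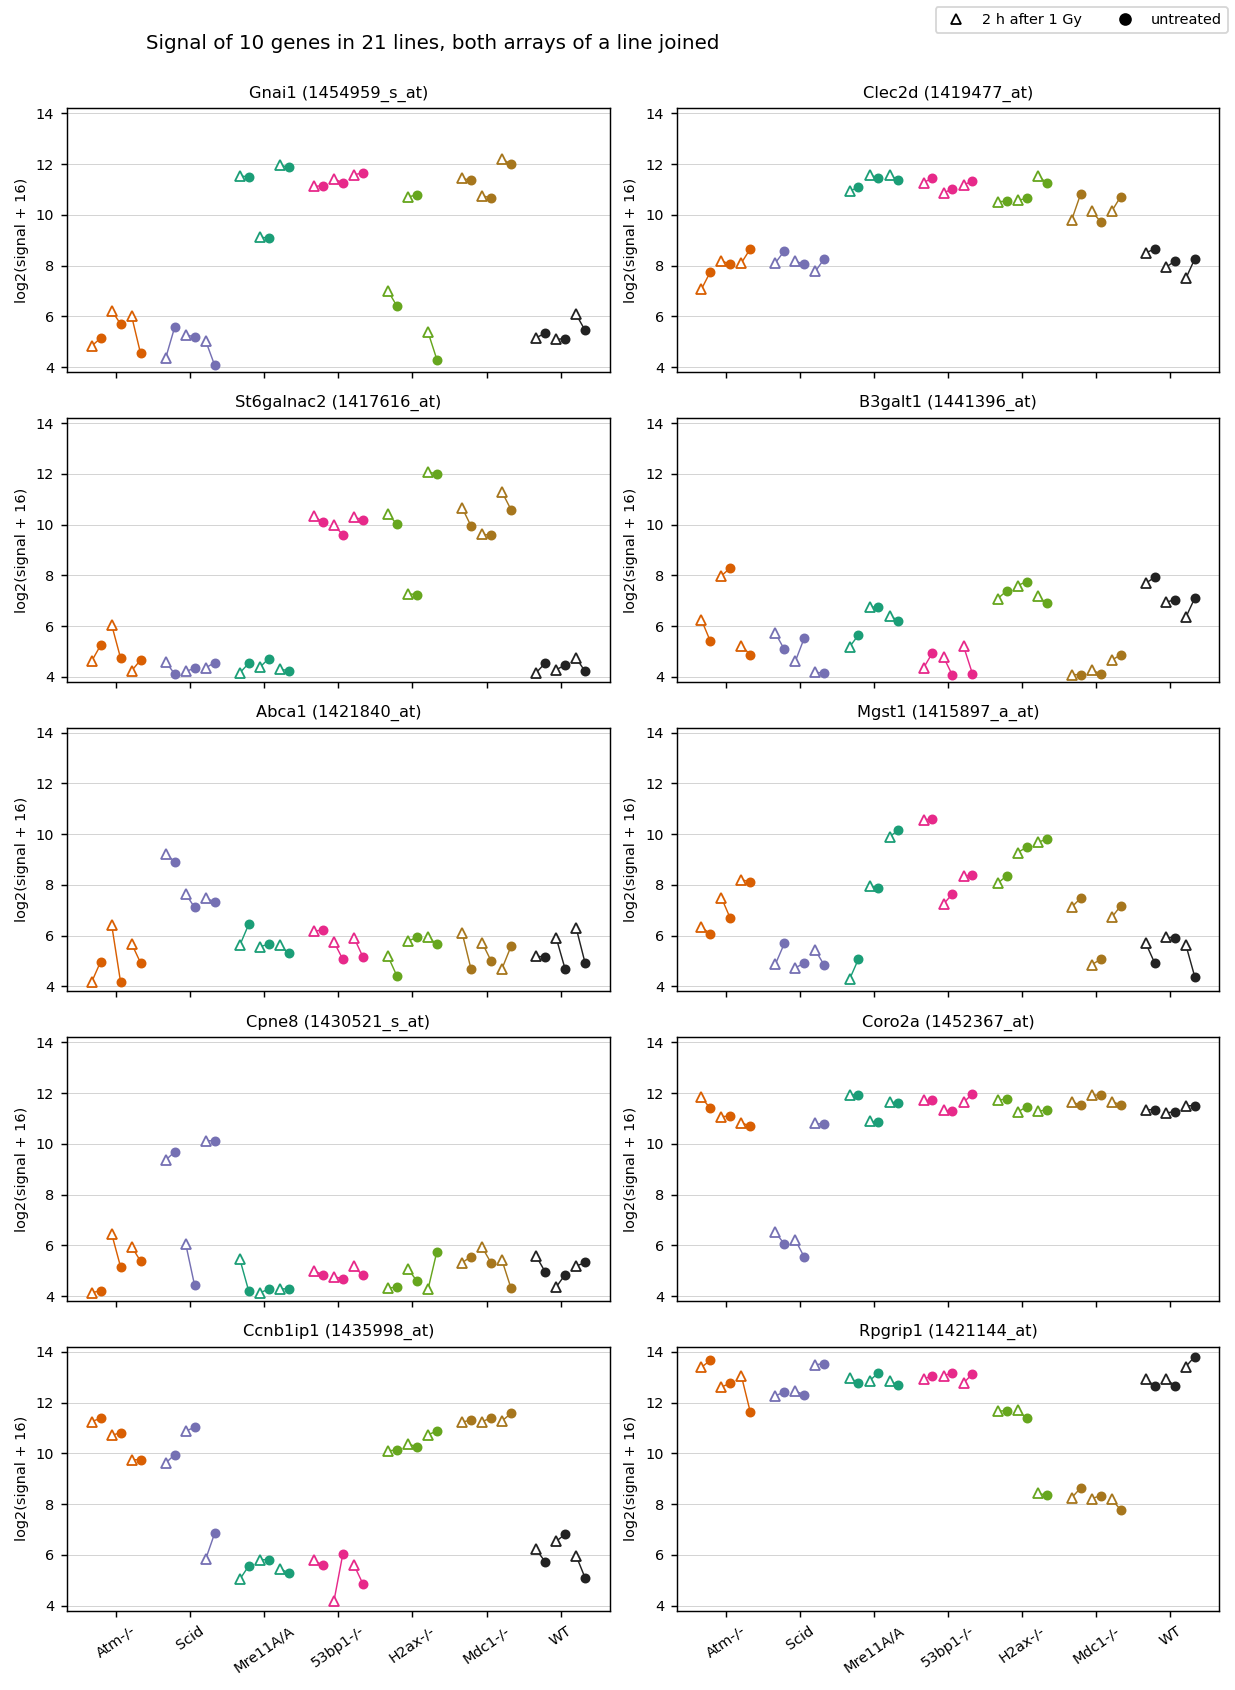
Signal of the main probe set of each of the 10 genes on the log2(signal + 16) scale, by genotype with WT at the right. Each joined pair is 1 line, with the irradiated array as an open triangle and the untreated array as a filled circle. In H2ax-/-, only line 2 is high for Gnai1 and only line 3 is low for Rpgrip1, and both arrays of each of these lines show it.

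Both glycosyltransferases differed from WT in 53bp1-/- and Mdc1-/- lines, in opposite directions. St6galnac2 adds alpha-2,6-linked sialic acid to the N-acetylgalactosamine of O-linked glycans. On 1417616_at its untreated signal was 1073, 756 and 1155 in 53bp1-/-, 1018, 134 and 4036 in H2ax-/-, and 973, 744 and 1528 in Mdc1-/- lines. It was 21.7, 10.8 and 9.30 in Atm-/-, 1.33, 4.11 and 7.63 in Scid, and 7.12, 10.3 and 2.81 in Mre11A/A lines, against 7.15, 5.95 and 2.56 in WT lines. All 9 lines of 53bp1-/-, H2ax-/- and Mdc1-/- were above all 12 other lines, with H2ax-/- line 2 the lowest of the 9 and H2ax-/- line 3 the highest. The log2 differences from WT were 5.64 in Mdc1-/-, 5.56 in 53bp1-/- and 5.34 in H2ax-/-. The irradiated arrays gave 1271, 999.8 and 1228 in 53bp1-/-, 1355, 139 and 4324 in H2ax-/-, and 1607, 773 and 2469 in Mdc1-/-, against 1.86, 3.42 and 10.7 in WT. The other probe set, 1417617_at, ran over 2.05 to 63.4 on all arrays, did not pass the filter and had r = 0.117 with the first, so the pattern of St6galnac2 rests on 1 probe set.

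B3galt1, a beta-1,3-galactosyltransferase that builds type 1 chains, was lower in 53bp1-/- and Mdc1-/- and also in Scid and, by less, in Mre11A/A. On 1441396_at the untreated signal was 17.8, 30.3 and 1.65 in Scid, 14.9, 0.613 and 1.30 in 53bp1-/-, and 0.925, 1.24 and 13.2 in Mdc1-/- lines. It was 26.5, 297 and 13.2 in Atm-/-, 34.1, 92.2 and 57.9 in Mre11A/A, and 151, 199.7 and 103 in H2ax-/- lines, against 226, 115 and 121 in WT lines. On this probe set every untreated 53bp1-/-, Mdc1-/-, Scid and Mre11A/A line was below every WT line. The log2 differences of the means were -2.98, -2.99, -2.43 and -1.14 in that order, and H2ax-/- differed from WT by -0.01. Atm-/- was split, with line 2 at 297 and the others at 26.5 and 13.2. These are low signals: WT lines reached 226 at most, and the 53bp1-/- and Mdc1-/- lines lay under their array medians. The line means of all 5 B3galt1 probe sets correlated (r 0.794 to 0.942), the 2 that missed the filter included, but the order of the genotypes differed between probe sets. On 1455234_at, which passed the filter, untreated Mre11A/A lines (1.52 to 71.5) overlapped WT lines (55.8 to 124). Untreated 53bp1-/-, Mdc1-/- and Scid lines did not overlap WT lines there, but irradiated Scid arrays overlapped irradiated WT arrays.

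Of the family of sialyl- and galactosyltransferases, 30 of 34 listed genes were measured, and 3 passed the limma test across all kept probe sets in at least 1 mutant against untreated WT, all higher. The background shares of kept probe sets called were 0.103% in Atm-/-, 0.51% in Scid, 4.98% in Mre11A/A, 5.21% in 53bp1-/-, 5.7% in H2ax-/- and 7.52% in Mdc1-/-. St6galnac1, the close relative of St6galnac2, averaged 239 ± 63.8 in Mdc1-/-, 221 ± 40.3 in 53bp1-/- and 221 ± 82.9 in H2ax-/- cells, against 73.6 ± 7.53 in WT cells (SD, n = 3 each). Its log2 changes were 1.48, 1.39 and 1.34 (limma, adjusted p = 0.00738, 0.0159 and 0.0194). St6galnac4, which sialylates the same kind of glycan, rose in Mdc1-/- (0.90, limma adjusted p = 0.0162) and in H2ax-/- (0.78, adjusted p = 0.0453). C1galt1, which makes the core 1 O-glycan, was higher in 53bp1-/- (1.30), Mre11A/A (1.18) and Mdc1-/- (1.16), with limma adjusted p = 0.0231, 0.0415 and 0.0344, and varied among WT lines (1132 ± 908, SD, n = 3). The list was chosen with results of these arrays known, and its median difference from WT was 0.10 in Mdc1-/-, where that of all kept probe sets was 0.01.

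Abca1 pumps cholesterol onto apolipoprotein A-I and is a classical target of the oxysterol receptor LXR. It was highest in Scid lines. On 1421840_at the untreated signal was 469, 122 and 145 in Scid lines and 15.3, 2.10 and 14.5 in Atm-/-, 71.2, 34.9 and 23.4 in Mre11A/A, 58.0, 17.6 and 20.1 in 53bp1-/-, 5.33, 45.5 and 34.3 in H2ax-/-, and 9.91, 16.4 and 31.6 in Mdc1-/- lines, against 19.3, 9.99 and 14.5 in WT lines. All 3 Scid lines were above every other line, the nearest being Mre11A/A line 1 at 71.2. Scid was above WT by 2.86 on the log2 scale, and the irradiated Scid arrays had 578, 184 and 163 against 20.9, 44.6 and 63.4 in WT. On 1421839_at the Scid lines had 98.1, 60.8 and 83.6, against 20.8, 29.9 and 35.3 in WT lines, and the line means of both probe sets had r = 0.718. The remaining probe set, 1450392_at, did not pass the filter and reached at most 47.2.

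Since macrophages express Abca1, myeloid markers were set beside it. Their summed signal was 3152, 692 and 1237 in the untreated Scid lines 1, 2 and 3, against 783, 1174 and 756 in untreated WT lines. The excess of Scid line 1 was in the Fc receptor gene Fcgr3 (2619.9, 214 and 459 in Scid lines, against 206, 655 and 381 in WT lines). Csf1r was at 135, 141 and 269 in the untreated Scid lines, against 198, 127 and 129.6 in WT lines, so Scid line 3 was the highest of these. Lyz2 was at 88.7, 57.5 and 79.6 in Scid lines, against 51.4, 63.4 and 13.1 in WT lines, and Itgam at 4.89 to 13.2, against 21.4 to 28.6. Over the 10 myeloid markers, the summed signal was 692 to 3187 on the 6 Scid arrays, against 724 to 1174 on the 6 WT arrays, and 4 of the 10 had a median over all arrays at or above the array median. Abca1 was above the other genotypes in Scid lines 2 and 3 too, of which line 2 had a myeloid sum below and line 3 above those of the 3 untreated WT lines. The part of myeloid RNA in the Abca1 and Cpne8 levels was not tested. In bulk RNA, fewer cells of a type and less RNA per cell cannot be told apart. Of the 25 of 30 listed sterol efflux and synthesis genes that were measured, 0 passed the limma test in any of the 6 untreated comparisons.

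Mgst1, a microsomal glutathione transferase that also reduces lipid peroxides, varied among lines of the same genotype as well. On 1415897_a_at its untreated signal was 51.6, 87.3 and 261 in Atm-/-, 17.7, 219 and 1134 in Mre11A/A, 1528, 184 and 324 in 53bp1-/-, 313, 700.2 and 877 in H2ax-/-, and 162, 17.5 and 128 in Mdc1-/- lines. It was 35.7, 14.4 and 12.4 in Scid lines, against 14.3, 44.8 and 4.88 in WT lines. All H2ax-/-, 53bp1-/- and Atm-/- lines were above all WT lines, while Mre11A/A ran between 17.7 and 1134 and Mdc1-/- between 17.5 and 162 and overlapped them. The log2 differences from WT were 4.14 in H2ax-/-, 3.81 in 53bp1-/-, 2.63 in Mre11A/A, 1.88 in Atm-/- and 1.495 in Mdc1-/-. Between genotypes lay 60.9% of its sum of squares and between lines of a genotype 37.2%. The irradiated arrays repeated the line order within Mre11A/A (3.40, 235 and 935) and 53bp1-/- (1502, 136 and 308). The other probe set, 1415898_at, ran between 1.40 and 50.9 on all arrays and did not pass the filter. Of 21 measured glutathione genes, Gsr (glutathione reductase) rose in Mre11A/A by 0.95 and Gstcd in H2ax-/- by 0.60 on the log2 scale (limma, adjusted p = 0.0315 and 0.0380).

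Cpne8 and Coro2a separated Scid lines from the rest, in part. Cpne8 is a copine, a calcium-dependent phospholipid-binding protein. On 1430521_s_at its untreated signal was 806, 5.37 and 1091 in Scid lines and 2.39 to 37.9 over the 15 other mutant lines, against 15.2, 12.6 and 24.0 in WT lines. Scid lines 1 and 3 were high and line 2 was off, so Scid overlapped WT although its mean lay 3.03 above on the log2 scale, or 4.86 without Scid line 2 and 2.01 without line 3. On 1431146_a_at the untreated Scid lines had 669, 44.6 and 1062, against 3.23, 2.99 and 30.6 in WT lines, and did not overlap them, whereas irradiated Scid line 2 (15.3) lay among the irradiated WT lines (12.6 to 36.3). The irradiated Scid arrays gave 639.7, 50.1 and 1104.5 on the same probe set and 685, 15.3 and 1004 on 1431146_a_at, and r between these probe sets was 0.917. A Cpne8 probe set that did not pass the filter, 1430520_at, did not show the pattern (r = 0.0026 with the first). Of the 6 measured copines, Cpne6 passed in Mdc1-/- (1.44, limma adjusted p = 0.0244), which was lost with the line as a random effect (adjusted p = 0.0592).

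Coro2a encodes a coronin, an actin-binding WD-repeat protein that is also found in the NCoR corepressor complex. On 1452367_at its untreated signal was 50.3, 30.2 and 1732 in Scid lines and 1635 to 3998 over the 15 other mutant lines, against 2594, 2454 and 2885 in WT lines. Only Scid lines 1 and 2 were low on both arrays, and Scid line 3 was below the WT lines and within the range of the other mutants. The log2 difference of Scid from WT was -3.92, but -2.96 without Scid line 2 and -5.58 without line 3. Scid lines 1 and 2 had 74.98 and 57.7 after irradiation, against 2577, 2358 and 2879 in WT lines. Both arrays of a line differed by a median of 0.06 on the log2 scale, the least of the 10 genes. Of 5 measured coronins 0 passed the limma test in any untreated comparison.

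Ccnb1ip1, known as HEI10, is a RING protein needed for meiotic crossovers in mice. On 1435998_at its untreated signal was 2669, 1795 and 845 in Atm-/-, 976, 2078 and 99.2 in Scid, 1114, 1216 and 1873 in H2ax-/-, and 2536, 2704 and 3043 in Mdc1-/- lines. It was 31.3, 40.1 and 23.0 in Mre11A/A, and 32.0, 49.4 and 13.2 in 53bp1-/- lines, against 37.4, 96.9 and 18.3 in WT lines. The Atm-/-, H2ax-/- and Mdc1-/- lines and Scid lines 1 and 2 were high, and Scid line 3 lay at 99.2, just above the highest WT line at 96.9. Log2 differences from WT were 5.55 in Mdc1-/-, 4.77 in Atm-/-, 4.54 in H2ax-/- and 3.39 in Scid. Neighbours in the order Mdc1-/-, Atm-/-, H2ax-/- and Scid overlapped, as did those in the order WT, 53bp1-/- and Mre11A/A. The irradiated arrays were high in the same lines, with 2422, 1658 and 847 in Atm-/-, 771, 1867 and 41.3 in Scid, 1079, 1305 and 1689 in H2ax-/-, and 2391, 2413 and 2476 in Mdc1-/-, against 58.3, 76.6 and 46.6 in WT. The irradiated array of Scid line 3 was below all 3 irradiated WT arrays.

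Of 9 measured meiotic recombination genes, 1 passed: Msh5, a MutS homolog that stabilizes crossover intermediates, averaged 711 ± 107 in Scid cells, against 96.2 ± 23.8 in WT cells (SD, n = 3 each; log2 difference 2.71, limma adjusted p = 4.97e-07). Msh5 was also the gene whose line means were most like those of Abca1 (r = 0.907) and of Cpne8 (r = 0.839).

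Rpgrip1 anchors the GTPase regulator RPGR at the connecting cilium of photoreceptors. On 1421144_at the untreated signal was 12988, 7002 and 3173 in Atm-/-, 5521, 5059 and 11858 in Scid, 6957, 9249 and 6571 in Mre11A/A, and 8569, 9239.5 and 9000.4 in 53bp1-/- lines. It was 3272, 2656 and 313 in H2ax-/-, and 383, 308 and 204 in Mdc1-/- lines, against 6445, 6484 and 14420.4 in WT lines. Mdc1-/- lines and H2ax-/- line 3 were low. H2ax-/- lines 1 and 2 were intermediate, with Atm-/- line 3 close to them. These and Scid lines 1 and 2 lay below all WT lines. Mdc1-/- differed from WT by -4.79 and H2ax-/- by -2.57 on the log2 scale. The irradiated arrays gave 3242, 3310.1 and 327 in H2ax-/-, and 289.5, 281 and 275 in Mdc1-/-, against 7774, 7861 and 10973 in WT. Atm-/- line 3 had 3173 untreated and 8509 irradiated, the widest gap of a line for this probe set.

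The probe sets of Rpgrip1 did not show a single pattern. On 1454231_a_at the untreated Mdc1-/- lines had 116, 46.4 and 59.7 and the H2ax-/- lines 186, 186 and 124, against 149.5, 115.0 and 229 in WT lines. H2ax-/- line 3 lay within the WT values there, and 53bp1-/- line 1 stood out with 1407. Its line means had r = 0.541 with 1421144_at and 0.828 with 1451785_at, on which 53bp1-/- line 1 was also highest. The deposited names do not say which transcripts each probe set reads. Of 18 measured ciliary transition zone genes 0 passed in any untreated comparison.

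**Figure D2:**
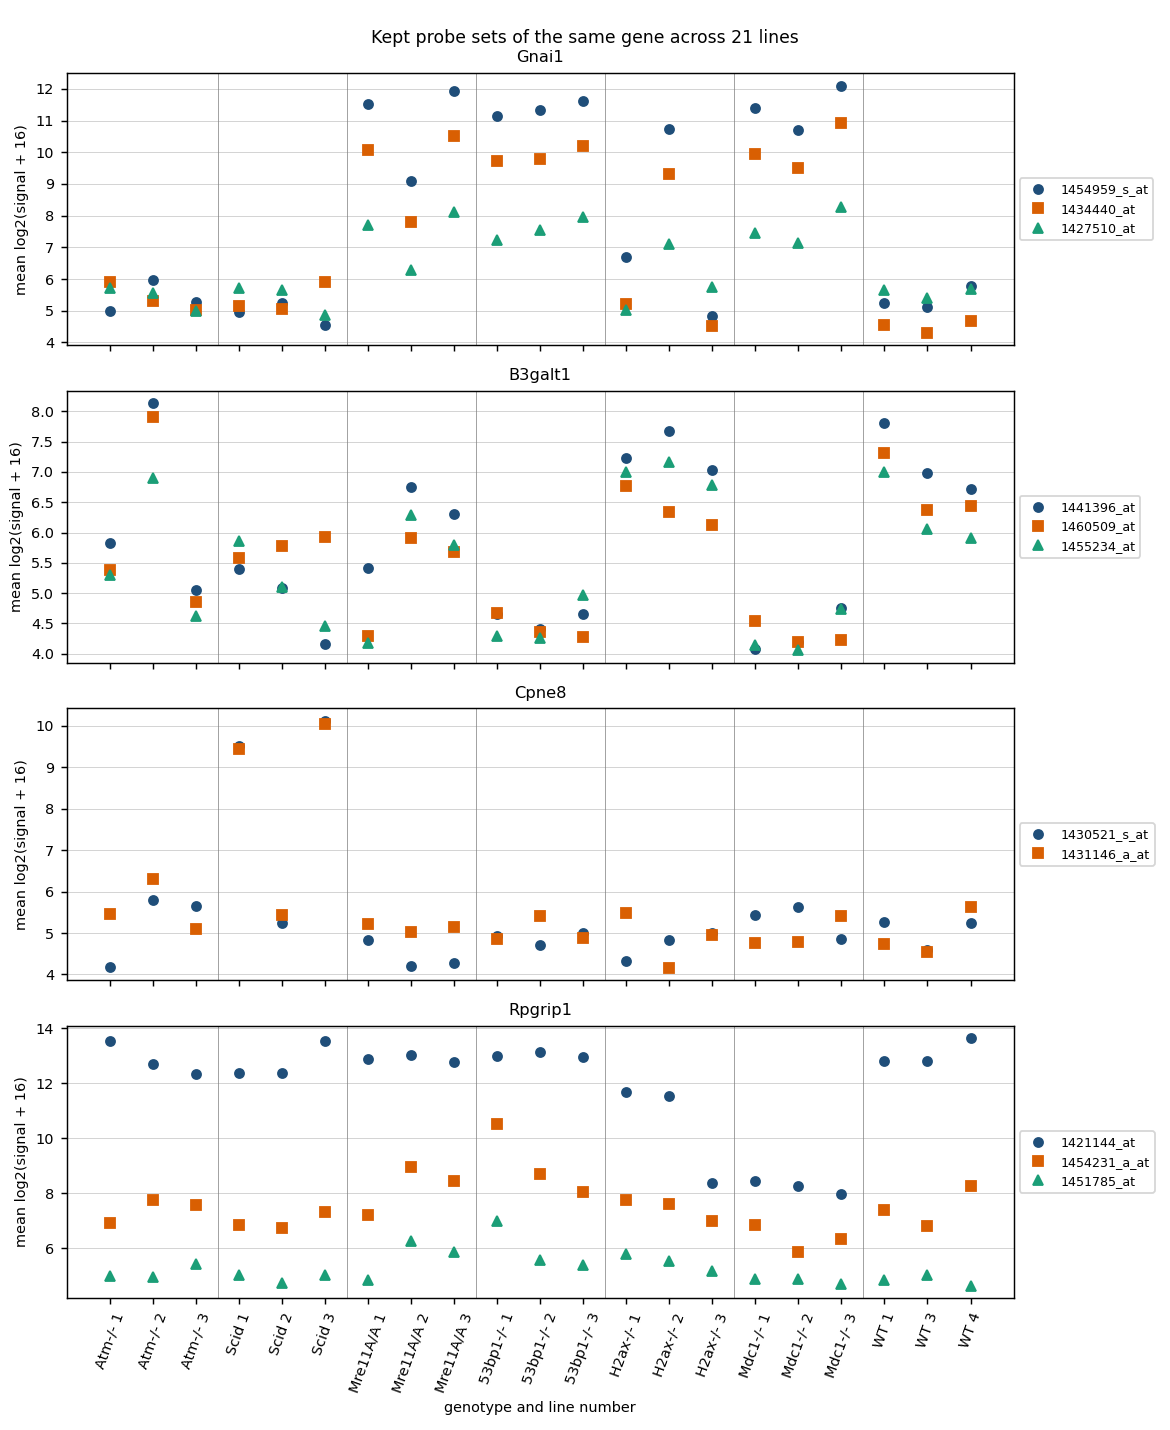
Mean log2(signal + 16) of both arrays of each line for every kept probe set of Gnai1, B3galt1, Cpne8 and Rpgrip1, with lines grouped by genotype and WT at the right. The probe sets of the first 3 genes are high in the same lines, while 1421144_at and 1454231_a_at of Rpgrip1 differ at H2ax-/- line 3 and at 53bp1-/- line 1.

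Of 20 measured heterotrimeric G protein genes, 4 passed in Mdc1-/-, 3 higher and 1 lower, and 1 of them also in Mre11A/A. Gng12, a gamma subunit, averaged 1026 ± 109 in Mdc1-/- cells, against 86.8 ± 73.8 in WT cells (SD, n = 3 each; log2 difference 3.84, limma adjusted p = 0.0128). The inhibitory subunits Gnai2 and Gnai3 changed by 0.43 and -0.43 there (limma, adjusted p = 0.00696 and 0.00596), while Gna11 rose by 0.51 in Mdc1-/- (adjusted p = 0.00643) and by 0.41 in Mre11A/A (limma, adjusted p = 0.0423, and 0.0763 with the line as a random effect). Of 6 measured C-type lectins of the natural killer gene complex, Clec2i fell by 1.24 in Mdc1-/- (limma, adjusted p = 0.0446). Over all 9 lists, 12 of 140 measured genes gave 18 calls, 16 higher and 2 lower, in 840 comparisons of a gene and a mutant. That is 2.14%, below the mean share of 4% of all kept probe sets called in the same 6 comparisons.

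Of the 10 main probe sets, the numbers whose 3 untreated mutant arrays did not overlap the 3 WT arrays were 3 in Atm-/-, 4 in Scid, 5 in Mre11A/A, 6 in 53bp1-/-, 5 in H2ax-/- and 7 in Mdc1-/-. Among all kept probe sets these shares were 11.4%, 15.8%, 24.8%, 25.7%, 28.1% and 28.8% in the same order, and since the genes were chosen on this contrast nothing is read from the counts. On the irradiated arrays of the same lines the counts were 2, 5, 3, 6, 5 and 7, with backgrounds of 10.9%, 13.4%, 27.5%, 26.6%, 24.3% and 30.7%. Some of the non-overlapping differences were small: Coro2a was 0.29 above WT in Mdc1-/- and St6galnac2 0.48 above WT in Atm-/-, where its untreated signals reached at most 21.7.

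Agreement of both arrays of a line entered the choice of the genes and is given as a description, with nothing read from its distance to other probe sets. Across 21 lines, r between untreated and irradiated arrays had a median of 0.975 over the 10 main probe sets, from 0.745 for Abca1 to 0.996 for Coro2a, against 0.592 over all kept probe sets. The wide spread of the genes over the lines enters that r: the median absolute difference of both arrays was 0.246 for the 10 genes and 0.220 for all kept probe sets, while the range of line means had medians of 5.93 and 1.27 on the log2 scale. Of 210 pairs of a line and a gene, 205 had both arrays on the same side of their array medians (97.6%, against 90.6% for all kept probe sets). Both arrays came within 1 log2 unit in 191 pairs (91.0%, against 93.5%). The largest gap, 2.25 for Abca1, was in Atm-/- line 2, whose irradiated array had the high median, and its signals there were 70.3 irradiated and 2.10 untreated.

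The genes differed in how far the lines of 1 genotype shared a level. For Clec2d and St6galnac2, 94.2% and 91.7% of the sum of squares lay between genotypes, and for Ccnb1ip1, Rpgrip1 and Gnai1 88.7%, 86.1% and 86.0%. Mgst1, Cpne8 and Coro2a had 37.2%, 33.7% and 29.8% between lines of a genotype. Abca1 had a large share between both arrays of a line, 16.1%, where the next highest was 5.59% for Cpne8. Over all kept probe sets the medians were 33.6% between genotypes, 35.5% between lines and 23.8% between arrays. The choice of the genes fixes a high share between genotypes, so this is a description.

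**Figure D3:**
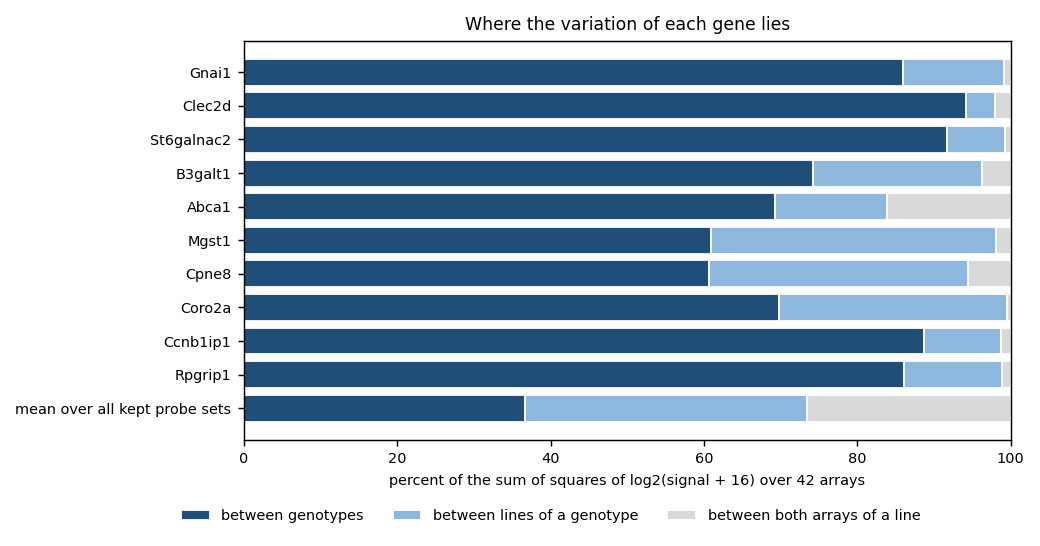
Percent of the sum of squares of log2(signal + 16) over 42 arrays that lies between genotypes, between lines of a genotype and between both arrays of a line, for the main probe set of each gene and as the mean over all kept probe sets. Clec2d has the largest share between genotypes (94.2%) and Mgst1 the largest between lines (37.2%).

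Classed by whether both arrays lay above the array median, St6galnac2 was above in 9 lines and below in 12, and no genotype was split. Rpgrip1 and Clec2d were above it in all 21 lines, so their differences were of degree at these signals. Gnai1 was above in 10 lines and below in 10, with H2ax-/- the split genotype. Cpne8 was above in 2 lines, and Coro2a below in 2 lines, with Scid the split genotype for both. Scid line 3 was high for Cpne8 and for Coro2a, line 1 high for Cpne8 and low for Coro2a, and line 2 low for both, so these genes divided the Scid lines differently.

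The genes were chosen on untreated levels, and the rule also looked at how well both arrays of a line agreed, so a choice of genes with little radiation response is possible. Of the 18 kept probe sets of the 10 genes 0 passed the limma test of the irradiated minus untreated difference averaged over 7 genotypes at an adjusted p of 0.05. The background was 2.41% of kept probe sets called. The labels' numbers pair both arrays of a line, and with the line as a block the count was again 0 of 18, while the background rose to 10.8%. At an unadjusted p under 0.05 there was 1 of 18 without the block, Abca1, where 10.8% of all kept probe sets passed, and 2 of 18 with it, Clec2d and Abca1, where 22.7% passed. In the F test of unequal responses among genotypes, 0 of 18 passed after adjustment in both fits, with backgrounds of 0.00708% without and 0.541% with the block. Unadjusted, 0 of 18 passed without the block (2.18% of all) and 2 of 18 with it (10.3% of all), Gnai1 on 1434440_at and Coro2a, whose limma adjusted p were 0.121 and 0.336.

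Clec2d had the smallest adjusted p with the block, and Abca1 without it. For Clec2d on 1419477_at the irradiated arrays gave 118, 277 and 259 in Atm-/-, 260.3, 272 and 204 in Scid, 1929, 3030.4 and 3026 in Mre11A/A, 2459.9, 1857 and 2308 in 53bp1-/-, 1460.0, 1503 and 2987 in H2ax-/-, and 883, 1114 and 1118 in Mdc1-/-, against 349, 229 and 165 in WT, to be set beside the untreated values above. The signal was lower after irradiation in 15 of 21 lines, by a mean log2 change of -0.21 (SE 0.07 with the block, limma adjusted p = 0.0582, and SE 0.12 and adjusted p = 0.553 without it). Leaving out the 2 lines whose irradiated array had a high median gave -0.22 and a limma adjusted p of 0.0383 with the block. The change is small beside the gap of 2.06 to 2.94 between the high genotypes and WT, and no line crossed from 1 level to the other.

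Abca1 had a mean log2 change of 0.42 with 15 of 21 lines higher after irradiation (SE 0.18 with the block, limma adjusted p = 0.146, and SE 0.20 and adjusted p = 0.433 without it). It was 0.21 with a pseudocount of 64 and 0.66 with 1, and on its other kept probe set it was -0.21. The other main probe sets had mean changes between -0.12 and 0.25. The 18 probe sets had a median change of 0.03, against -0.00036 for all kept probe sets, and a median absolute change of 0.108, against 0.0772.

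**Figure D4:**
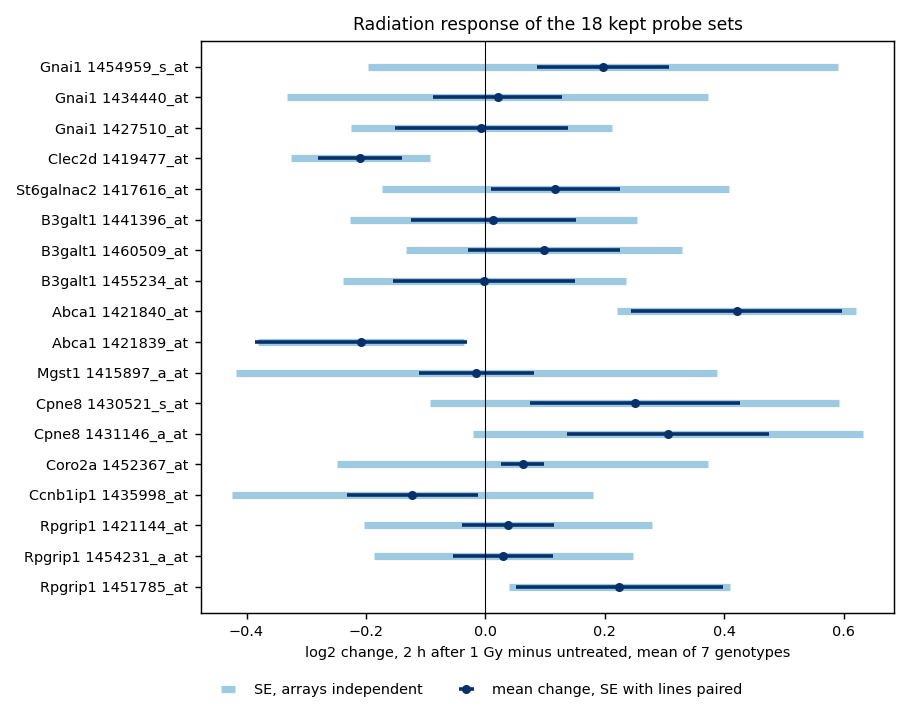
Mean log2 change, irradiated minus untreated, of the 18 kept probe sets over 7 genotypes, with the SE of the fit that takes arrays as independent (thick pale bars) and of the fit that pairs both arrays of a line (thin dark bars). The means lie between -0.21 and 0.42, and the paired SE is smaller for genes that differ widely between lines, such as Coro2a (0.04 against 0.31).

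For each gene, the 3 genes with the most similar line means were sought among 12362 others, by Pearson r over 21 lines. St6galnac2 had the closest match, BC018473 (r = 0.972), which is the next measured gene on chromosome 11, followed by St6galnac1 (r = 0.946) on the same chromosome. BC018473 averaged 1128 ± 512 in untreated 53bp1-/-, 735 ± 511 in H2ax-/- and 924 ± 419 in Mdc1-/- cells, against 18.03 ± 17.7 in WT cells (SD, n = 3 each). The measured gene on the other side of St6galnac2, Snhg16, had r = -0.262. The lines that share a genotype are common to all these points.

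Matches on the chromosome of the member were also found for 3 other genes. Rpgrip1 on chromosome 14 was most like Ang (r = 0.888), the angiogenin gene, and Gm26782 (r = 0.862), both on that chromosome. Ccnb1ip1, also on chromosome 14, was like Supt16 (r = 0.854), which encodes the large FACT subunit and is the measured gene next to Rpgrip1, with which it had r = -0.730. Coro2a on chromosome 4 was like Trmo (r = 0.918) and Alpl (r = 0.895), which encodes tissue-nonspecific alkaline phosphatase. In all, 7 of the 30 nearest genes (4 of the 10 members) lay on the chromosome of their member, where a mean of 5.54% of the compared genes lay.

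**Figure D5:**
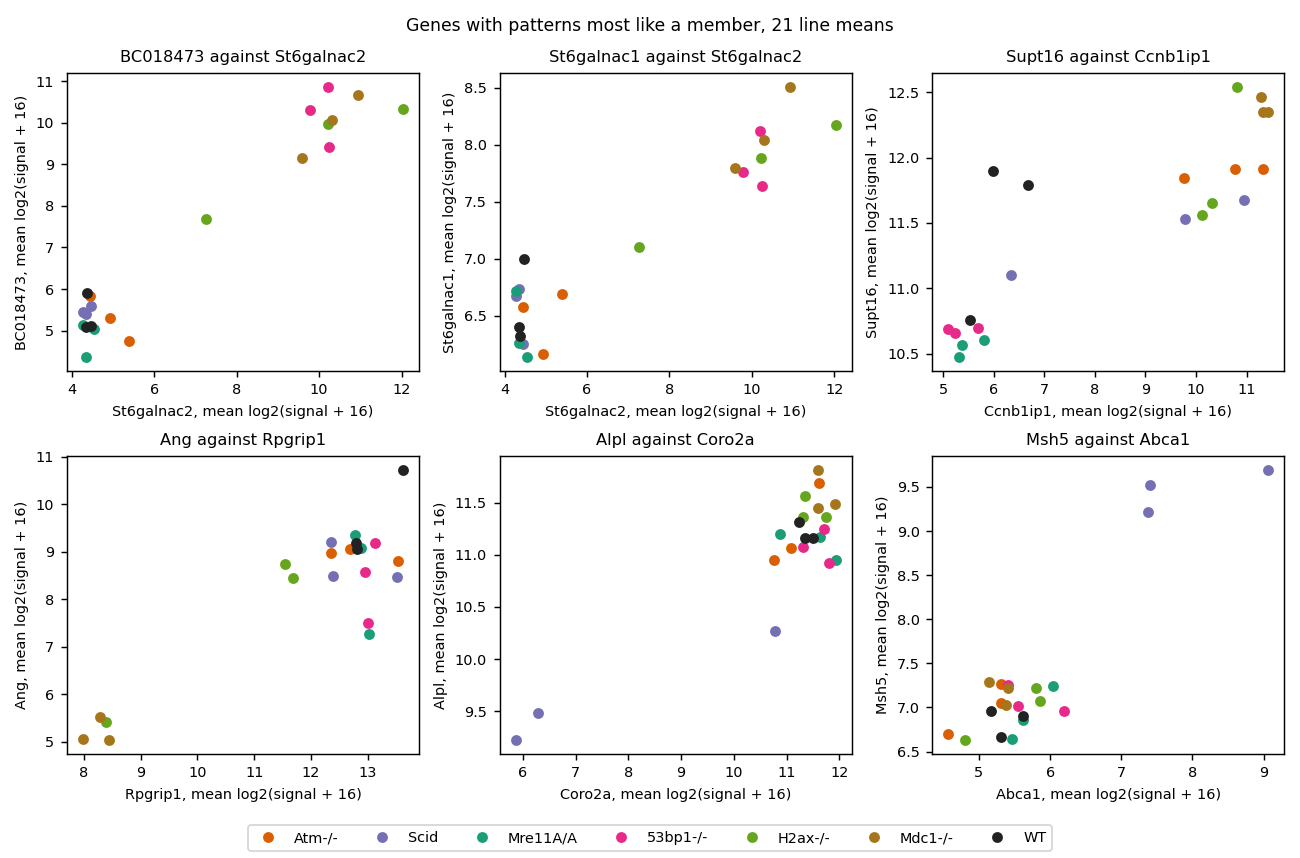
Mean log2(signal + 16) of both arrays of a line for 6 pairs of a member (horizontal axis) and a gene among its 3 most similar (vertical axis), 21 lines coloured by genotype. BC018473 and St6galnac2 are high in the same 9 lines, Ang and Rpgrip1 are low in the same 4 lines, and Msh5 and Abca1 are high in the 3 Scid lines.

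The most similar genes of Clec2d were Pik3ca (r = 0.966), Acin1 (r = 0.964) and the noncoding RNA Malat1 (r = 0.963), on 3 other chromosomes, and Acin1 was among those of Gnai1 too (r = 0.863). Acin1 averaged 3022 ± 329 in Mre11A/A, 2837 ± 127 in 53bp1-/-, 2748 ± 406 in H2ax-/- and 2338 ± 318 in Mdc1-/- cells, against 1061 ± 155 in WT cells (SD, n = 3 each). B3galt1 and Mgst1 had the weakest best matches, Zc3h12d (r = 0.763) and Tapt1 (r = 0.781).

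Among the members, 3 pairs share a chromosome. Coro2a and Abca1 on chromosome 4 have 36 protein-coding genes between them and r = -0.796 over the line means. Ccnb1ip1 and Rpgrip1 on chromosome 14 have 41 between them and r = -0.645, and Clec2d and Mgst1 on chromosome 6 have 117 and r = 0.654. Pairs on different chromosomes reached similar values, such as Cpne8 with Abca1 (r = 0.776) and Gnai1 with Clec2d (r = 0.771). Gnai1 lies on chromosome 5, B3galt1 on 2, St6galnac2 on 11 and Cpne8 on 15. Whether linkage, strain background or the mutated gene moved with these levels was not tested.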

How the data were processed

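RNA of 21 lines was measured on 42 arrays with biotin-labelled one-cycle targets. The deposited values are probe-set intensity on a linear scale, made by the authors with MAS5 per the submitters' processing notes; software versions and scan dates are not given in the sources used here. The 2% trimmed mean was 500 on every array, which sets them to one scale. Signals went to log2(signal + 16), which understates the change of low genes. Of 45101 probe sets, 28260 above their own array's median on at least 3 arrays were kept; 34945 had 1 platform symbol, 932 several and 9160 none, and the platform annotation can be old. Only single symbols were used.

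limma 3.58.1 (lmFit, eBayes with trend) in R 4.3.3 fitted 14 group means to all 42 arrays (28 residual df), with Benjamini-Hochberg adjustment over all kept probe sets. The number of arrays, 3 per group, limits precision, and no detection calls were used here. The same number marks both arrays of a line: their deviations from the group means had r of 0.322 to 0.598 over 21 pairs, against at most -0.0400 for different numbers. Deviations within a group cancel out, so positive values for the same number pull down those for different numbers. The gap between them is thus not separate support for the pairing. The fit with the line as a block had 14 residual df. A random line effect had a correlation of 0.446. The fit was tested on simulated data.

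The 10 members and the gene lists were chosen with earlier results of these data known. Named are the main probe set of each member and some of the other member probe sets. From each family list, up to 4 genes with the smallest adjusted p are named. Per member, the 3 genes with the highest r of line means and the nearest measured genes on either side were found, of which only some are discussed. Promoter windows and gene order are from RefSeq (GRCm38.p6). Alternatives were other pseudocounts, filters, normalizations, 1 probe set a gene, no trend, the block and leaving out each array. Figures used Python 3.11.15 and matplotlib 3.10.9.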

Additional observations from a re-analysis of the deposited data

How the results depend on the processing

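For each of the 10 genes, alternatives were run on 1 difference from WT: Gnai1 in 53bp1-/-, Clec2d in Mre11A/A, Mgst1 in H2ax-/-, St6galnac2, B3galt1, Ccnb1ip1 and Rpgrip1 in Mdc1-/-, and Abca1, Cpne8 and Coro2a in Scid. These kept their sign under all 260 alternatives, 16 of which moved by over 1 SD, mostly with the pseudocount. The 260 include leaving out untreated arrays of other genotypes, which cannot move the difference. The genes were also chosen for such differences, so nothing is read from the kept signs. Of the differences without such alternatives, Abca1 in Mre11A/A was 0.88 untreated and -0.21 on the irradiated arrays, and B3galt1 in H2ax-/- -0.01 and 0.29. Member responses to radiation had 1 call in 526 alternatives: Clec2d with the line as a replicate block and without the 2 lines of high array median, an alternative chosen after seeing the data (1 member called, against 0). Of the 526, 472 kept their sign. The replicate block raised the probe sets called for the average response to 3038, against 681 without it, and for unequal responses to 153, against 2, and without those 2 lines it gave 3049 and 203. It left both member counts at 0 with all lines.

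Counts of probe sets called between untreated genotypes moved more. The fit as reported called 29 in Atm-/-, 144 in Scid, 1408 in Mre11A/A, 1472 in 53bp1-/-, 1612 in H2ax-/- and 2124 in Mdc1-/-. With 1 probe set a gene, so fewer tested, these were 9, 35, 310, 375, 535 and 640, and the average response had 375. Without a filter Atm-/- had 19 and Scid 68, without the trend 19 and 61, and Scid had 79 with quantile normalization and 78 centred on the 75th percentile. The cause of these moves was not tested. Leaving out each array in turn gave 19 to 64 in Atm-/-, 46 to 250 in Scid, 785 to 1571 in Mre11A/A, 803 to 1659 in 53bp1-/-, 962 to 1793 in H2ax-/-, 1199 to 2275 in Mdc1-/-, 568 to 765 for the average response, 2 to 6 for unequal responses and 0 to 0 for the members. Low signals, under the array median in most lines, limit Cpne8, Abca1 and B3galt1.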
